A study of Homo sapiens with 6 samples.

Results

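The 9 noncoding RNA genes RN7SL1, RN7SL2, RN7SK, RMRP, RPPH1, TERC, VTRNA1-1, VTRNA1-2, and VTRNA1-3 were taken by gene symbol from the 46427 genes of an expression table made from total RNA of lung cancer cells. They were chosen by their measured level in these libraries, as the top transcripts and their relatives, so their levels are given as a description and were not tested. The rule for the choice did not use the effects of MALAT1 knockdown or of the cell line, but earlier results of these data were known when it was made. RNA-seq was performed on 6 libraries from the NSCLC (non-small cell lung cancer) cell lines H460, H1299, and A549, established human tumor lines grown in culture. Each line gave 1 control library, labelled as non-treated, and 1 library after transfection with si-MALAT1, a small interfering RNA against the nuclear long noncoding RNA MALAT1. The study's methods also describe cells given a control siRNA and do not name which control was sequenced, and the time from transfection to RNA isolation is not given in the sources used here. Every condition of a line was 1 library, so the p-values below measure only the spread between these 6 libraries.

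RNA polymerase III makes short, untranslated RNAs that every cell uses, and it stops at runs of T. RN7SL1 and RN7SL2 encode 7SL, the RNA of the signal recognition particle, which guides ribosomes making secreted proteins to the endoplasmic reticulum. RN7SK encodes 7SK, which holds the elongation factor P-TEFb inactive with the help of HEXIM1 or HEXIM2. RPPH1 is the RNA of RNase P, which trims the 5' end of tRNA precursors, and RMRP is the RNA of the related RNase MRP, which cuts ribosomal RNA precursors. The VTRNA1 genes encode vault RNAs, which bind to the large vault particle and to other proteins. TERC is the template RNA of telomerase. In human cells TERC is transcribed by RNA polymerase II, so 8 of the 9 genes are RNA polymerase III genes.

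The total read counts were 42506818 to 68515992 per library, with A549 the shallowest. MALAT1, the target, was lower in each si-MALAT1 library than in the control of its line, by a mean log2 difference of -2.71 ± 0.34 (SD, n = 3 lines). The epithelial keratins KRT8 and KRT18 were present in every library (at least 122.5 TPM). The epithelial adhesion genes CDH1 and EPCAM were below 1 TPM in H460 and H1299. Of the markers of other cell types, the blood cell gene PTPRC was at 0 in all 6 libraries. The endothelial gene PECAM1 reached at most 0.022 TPM, and the fibroblast gene COL1A1 stood at 0.109 to 2.03 TPM.

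RN7SL1 and RN7SL2 are nearly the same RNA, which matters for any count given to one of them. RN7SL1 (Gene ID 6029), RN7SL2 (Gene ID 378706), and the annotated copy RN7SL3, which is not among the 9 genes, lie on chromosome 14 of GRCh38, the first on the plus strand and the others on the minus strand. Each is a single exon of 299 bases with no coding sequence. RN7SL2 is 98.7% identical to RN7SL1, and RN7SL3 97.7%. Of the 200 windows of 100 bases in RN7SL1, 74.5% occur without a mismatch elsewhere in the genome, as do 82.5% of those in RN7SL2. For RN7SK the share was 51.1%, and for RMRP, RPPH1, and TERC it was 0.0%. A read inside such a window fits several places equally well, and how the authors' counting split such reads is not given in the sources used here, so the separate counts of RN7SL1 and RN7SL2 are uncertain.

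RNA polymerase III genes differ in where their promoter lies. The 50 bases before the annotated start are shown for some of the 9 genes, among them TERC, an RNA polymerase II gene. A match of letters there does not measure a promoter. RN7SK (Gene ID 125050, chr6:52995620-52995951, plus strand, 332 bases), RMRP (Gene ID 6023, chr9:35657751-35658018, minus strand, 268 bases), RPPH1 (Gene ID 85495, chr14:20343071-20343411, minus strand, 341 bases), and TERC (Gene ID 7012, chr3:169764610-169765060, minus strand, 451 bases) are single exons of noncoding genes. The sequences are of GRCh38. Each has TATAA or TATAT, shown in capitals, from 28 to 32 bases before the start.
RN7SK: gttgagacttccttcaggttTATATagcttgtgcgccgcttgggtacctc
RMRP: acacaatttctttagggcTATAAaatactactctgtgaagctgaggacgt
RPPH1: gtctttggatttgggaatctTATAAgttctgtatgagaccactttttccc
TERC: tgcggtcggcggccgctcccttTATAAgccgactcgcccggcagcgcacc
Those letters were searched on the gene's strand from 40 to 16 bases before the start. They stood there in 6 of the 9 genes and in 5.1% of all 46461 annotated genes searched. Besides the genes shown above, VTRNA1-1 and VTRNA1-2 had them, at 22 bases before the start. The letters were not found there in RN7SL1, RN7SL2, or VTRNA1-3. A run of at least 4 T crossed or stood within 20 bases of the annotated end in 7 of the 9 genes, against 33.7% of all genes searched. The exceptions were TERC, with a longest run of 3 T, and VTRNA1-3, with 2.

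The 3 vault RNA genes lie on the plus strand of chromosome 5, VTRNA1-1 (Gene ID 56664) at chr5:140711276-140711373, VTRNA1-2 (Gene ID 56663) at chr5:140718926-140719013, and VTRNA1-3 (Gene ID 56662) at chr5:140726159-140726246. They are shown because only VTRNA1-3 had more than a few reads. Capitals mark GTTCGA, the core of the B box, a promoter element that lies inside the transcribed RNA.
VTRNA1-1: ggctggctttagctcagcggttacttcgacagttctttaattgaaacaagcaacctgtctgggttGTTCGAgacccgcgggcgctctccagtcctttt
VTRNA1-2: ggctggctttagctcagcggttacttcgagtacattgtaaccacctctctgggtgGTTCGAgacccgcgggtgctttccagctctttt
VTRNA1-3: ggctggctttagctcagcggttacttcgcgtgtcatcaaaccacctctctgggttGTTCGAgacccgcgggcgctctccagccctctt
VTRNA1-3 has 60.2% G and C, against 52.0% in VTRNA1-1 and 54.5% in VTRNA1-2. It is 87.6% identical to VTRNA1-2 and 82.7% identical to VTRNA1-1. None of the 3 has a window of 50 bases that recurs in the genome.

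The 9 genes together held 43.6 to 49.3% of the TPM (read counts per length, scaled to the same sum in every library) and 11.3 to 14.2% of the read counts. The label of abundant RNAs fitted 5 of them. RN7SL1 stood first or second in every library by TPM, with a mean of 149265 ± 21392 TPM (SD, n = 6). RN7SL2 followed with 121423 ± 15108 TPM, RN7SK with 92493 ± 40744, RPPH1 with 54748 ± 16086, and RMRP with 41156 ± 8507. RN7SL1 and RN7SL2 overlapped in range (120556 to 171953 and 100353 to 139370 TPM), but RN7SL1 was above RN7SL2 in each of the 6 libraries. That order is uncertain, since how shared reads were split between these genes is not given in the sources used here. RPPH1 and RMRP also overlapped (33973 to 68106 and 28910 to 48221 TPM), and RPPH1 was the higher in H460 and A549 and RMRP in H1299. For scale, GAPDH, a metabolic enzyme with a very abundant mRNA, averaged 4134 TPM. Among the 6 genes of highest mean TPM, the only one outside the 9 was SNORD3A, the U3 small nucleolar RNA, at 63790 TPM.

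**Figure D1:**
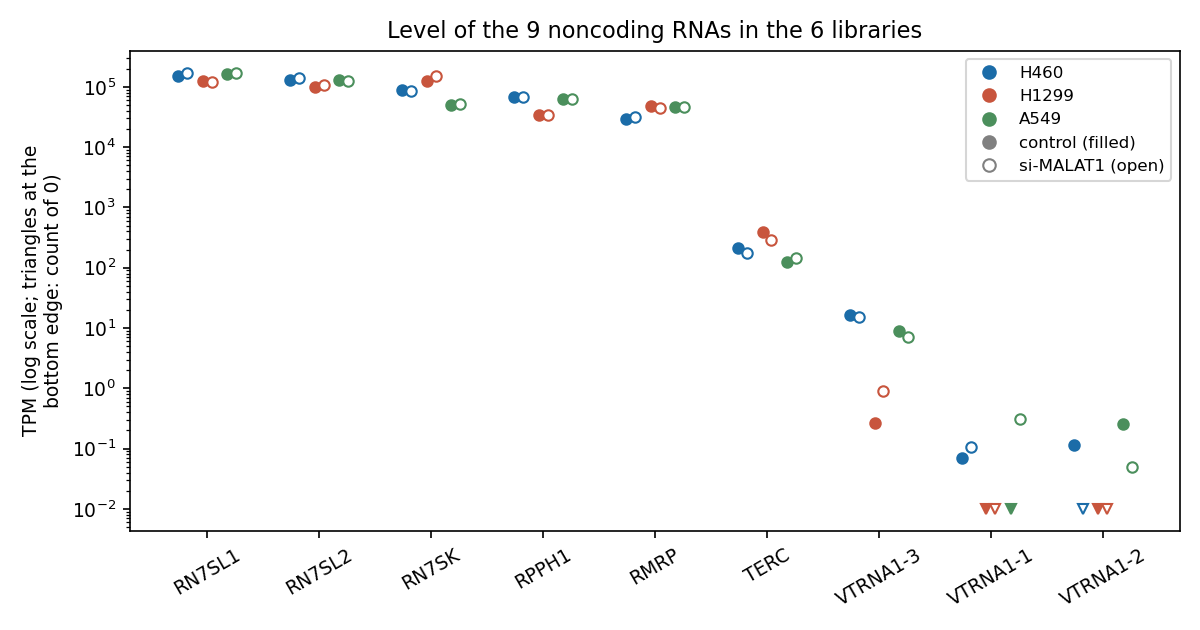
Level of each of the 9 noncoding RNAs in TPM (log axis) in the 6 libraries, with filled points for control and open points for si-MALAT1 and a color per cell line. RN7SL1, RN7SL2, RN7SK, RPPH1, and RMRP sit at 28910 TPM or more in every library, TERC between 123.3 and 388.4 TPM, and the vault RNAs at 16.1 TPM or less.

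TERC was far lower than these 5. Its levels in control and si-MALAT1 were 213.0 and 177.9 TPM for H460, 388.4 and 288.7 TPM for H1299, and 123.3 and 143.9 TPM for A549, and its rank by TPM ran from 164 to 591. VTRNA1-3 had 83 reads in each H460 library. It had 2 reads in the H1299 control and 5 after si-MALAT1, and 28 and 25 in the A549 libraries. VTRNA1-1 had 1 read in each H460 library, 0 in both H1299 libraries and the A549 control, and 2 in A549 after si-MALAT1. VTRNA1-2 had 1 read in the H460 control and in each A549 library and 0 in the other 3. Taking 3 reads as the limit that a count of 0 allows, the share in the H1299 control could be up to 4.51e-06% of its reads. These counts give what the libraries recovered, and a lower count cannot be told apart from less RNA per cell or fewer cells that make it.

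The levels were uneven along RNA length. The annotation gave a length for 31 other small noncoding RNAs from the lists of RNA polymerase III RNAs and small nuclear RNAs. They were 63 to 200 bases long, and the highest mean level among them was 207.2 TPM, of RNU1-1, a gene of the spliceosomal U1 RNA. RNU1-2, RNU1-3, and RNU1-4, other U1 genes, averaged 186.7, 201.3, and 194.0 TPM, so the value of 1 gene is not the level of the RNA. The 5 abundant genes and TERC were all longer, at 268 to 451 bases, and the 3 vault RNAs were all under 100 bases. RNY1, RNY3, and RNU6-1, genes of the short Y RNAs and of U6, which RNA polymerase III also makes, averaged 38.0, 36.3, and 24.7 reads. RNU6-2, another U6 gene, averaged 123.3 reads. How reads were split among the U1 genes or among the U6 genes was not tested. Whether library preparation kept short RNAs was not tested.

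**Figure D2:**
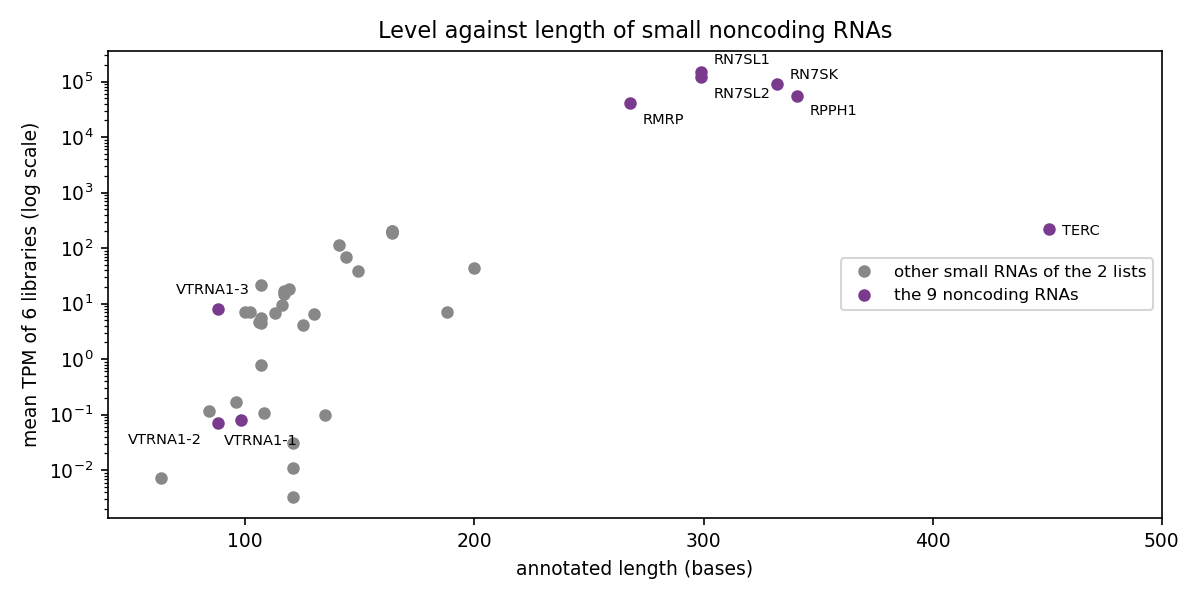
Mean TPM of 6 libraries (log axis) against annotated length in bases for the 9 noncoding RNAs (purple) and 31 other small noncoding RNAs (grey). Each single gene of 200 bases or less sits at 207.2 TPM or lower, and RMRP, RN7SL1, RN7SL2, RN7SK, and RPPH1 sit at 41156 TPM or more.

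Reads of the 7SL family were concentrated in RN7SL1 and RN7SL2. The table has 141 RN7SL genes, of which 98 had a read in some library. RN7SL1 held 49.1 to 54.0% and RN7SL2 39.3 to 43.3% of the family's reads, RN7SL3 held 3.50 to 4.95%, and the annotated pseudogene RN7SL4P held 2.96 to 3.71%. RN7SL4P had 101463 to 190140 reads, and the next copy, RN7SL674P, had 175 to 241. RN7SL2 and RN7SL4P share 46.5% of the windows of 100 bases of RN7SL2 without a mismatch. For 7SK, RN7SK held 99.1 to 99.4% of the reads of its 13 annotated genes. The pseudogene RN7SKP80 had 4813 to 16556 reads, RN7SKP292 had 0 to 23, and RN7SKP187 had 3 to 12. In total the other 151 RN7SL and RN7SK genes took 0.465 to 0.705% of all reads.

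The first comparison asked whether these RNAs differed after MALAT1 knockdown. Within a line the read counts were divided by RLE size factors, which set the typical gene equal across libraries, 1 was added, and the log2 difference was taken as si-MALAT1 minus control. The intervals are exact 95% Clopper-Pearson intervals on the split of reads and cover counting error only. Within a line the differences were under 1.5-fold except for VTRNA1-3 in H1299, and the direction was not the same in every line for any but RN7SK. RN7SL1 had 2602594 reads in control and 3026834 after si-MALAT1 for H460, 2183414 and 1814921 for H1299, and 1670961 and 2003006 for A549. The difference for H460 was 0.30 (0.30 to 0.30), for H1299 -0.14 (-0.14 to -0.13), and for A549 0.12 (0.11 to 0.12), so H1299 went the other way. RN7SL2 had 2245958 reads in control and 2522557 after si-MALAT1 for H460, 1730874 and 1590844 for H1299, and 1347028 and 1460132 for A549. Its differences, in the same order of lines, were 0.25, 0.01, and -0.03. Summing every copy of the family gave 0.26, -0.07, and 0.05. This sum does not depend on how reads were split among copies if each read was counted once. Whether each was counted once is not given in the sources used here.

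RN7SK had 1711942 reads in control and 1734357 after si-MALAT1 for H460, 2412345 and 2553605 for H1299, and 574772 and 671428 for A549. The differences were 0.10, 0.21, and 0.08, higher after si-MALAT1 in the 3 lines on this scale, while on the log2(TPM + 1) scale the H460 value was -0.04. RMRP, with 451418 and 515371 reads for H460, 745478 and 601429 for H1299, and 439088 and 486511 for A549, gave 0.27, -0.18, and 0.0032. RPPH1, with 1331037 and 1405848 reads for H460, 677352 and 583290 for H1299, and 754374 and 819674 for A549, gave 0.16, -0.08, and -0.03. For both RNAs H460 lay above 0 and H1299 below it. TERC had the largest difference within a line among the 6 genes with at least 1945 reads in each library. Its reads for H460 were 5598 and 4857, a difference of -0.12 (-0.18 to -0.07). For H1299 they were 10104 and 6557, a difference of -0.49 (-0.54 to -0.45), and for A549 they were 1945 and 2528, a difference of 0.23 (0.15 to 0.32). The TERC intervals of the 3 lines did not overlap, and A549 lay on the other side of 0 from H460 and H1299.

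**Figure D3:**
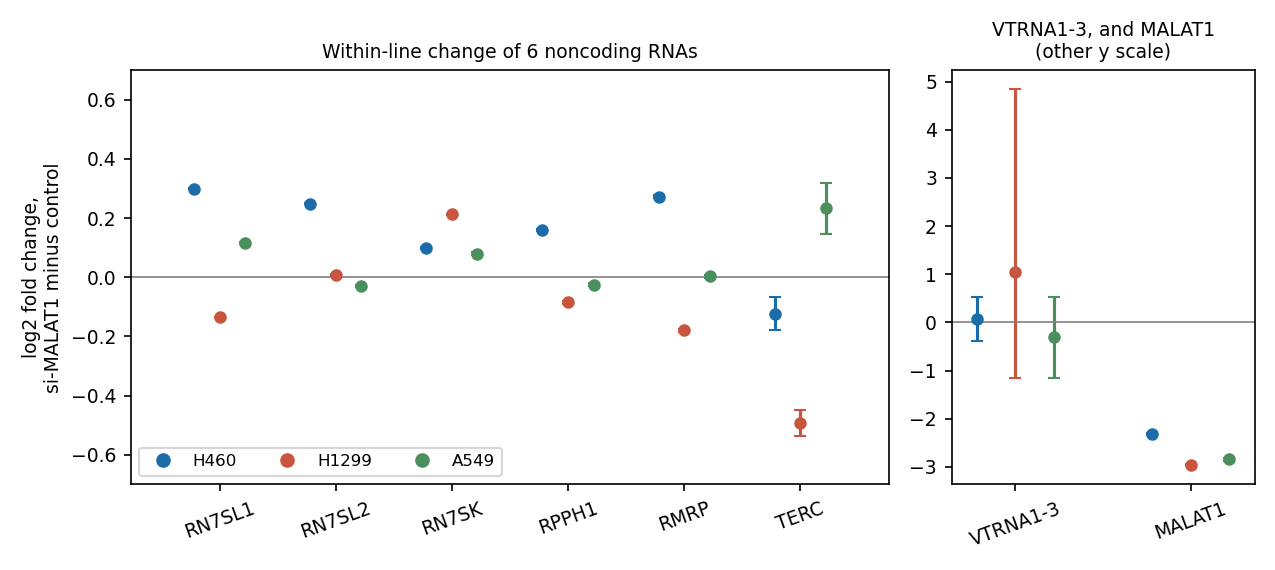
Log2 fold change in H460, H1299, and A549 (si-MALAT1 minus control) with 95% counting intervals, for 6 noncoding RNAs (left) and for VTRNA1-3 and MALAT1 on another scale (right). The 6 genes lie between -0.49 and 0.30, and MALAT1 between -2.96 and -2.32.

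VTRNA1-3 gave 0.08 for H460 (-0.38 to 0.54), 1.05 for H1299 (-1.16 to 4.85), and -0.30 for A549 (-1.15 to 0.52), each interval holding 0. The H1299 value rests on 2 and 5 reads. It was the only value past a fold change of 1.5 among the 7 genes with a read in every library, 0 of 7 in H460, 1 of 7 in H1299, and 0 of 7 in A549. Of the 17834 genes with a read in every library, 19.8% were past that fold in H460, 23.1% in H1299, and 22.9% in A549. No difference is given for VTRNA1-1 and VTRNA1-2, which had at most 2 reads in a library.

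Across the 3 lines, a quasi-likelihood model in edgeR that blocks on the cell line was fitted to 19122 genes. Of the 9, 7 entered and VTRNA1-1 and VTRNA1-2 did not reach the filter on low counts. It called 0 of the 7 at an adjusted p under 0.05, against 0.00523% of all genes, which was MALAT1 alone. At an unadjusted p under 0.05 the count was again 0 of 7, beside 2863 of all 19122 genes. DESeq2 called 0 of the 6 that received an adjusted p, against 8.41% of all genes. The fitted differences were 0.08 (SE 0.11, edgeR adjusted p = 0.806) for RN7SL1, 0.06 (0.10, 0.836) for RN7SL2, 0.11 (0.09, 0.634) for RN7SK, and 0.01 (0.12, 0.969) for RMRP. They were -0.0005 (0.10, 0.999) for RPPH1, -0.15 (0.16, 0.719) for TERC, and 0.13 (0.49, 0.932) for VTRNA1-3. The mean differences over the lines were 0.09 ± 0.22 for RN7SL1, 0.13 ± 0.07 for RN7SK, and -0.13 ± 0.36 for TERC (SD, n = 3). The test has 2 residual degrees of freedom, and a p that misses the threshold does not show that the levels were equal.

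The second comparison asked whether the levels differed between the cell lines. Each line enters with its control and its si-MALAT1 library, with treatment as a covariate, so the spread against which lines are judged comes from these pairs. In edgeR's joint test of the 3 lines, 6 of the 7 genes tested passed an adjusted p of 0.05, beside 64.3% of all 19122 genes, so most genes of the table differed between these lines too. RN7SK differed most clearly. Its scaled counts averaged 1639820 for H460, 2063550 for H1299, and 778063 for A549, with both A549 libraries below the other 4. It was 2.63-fold lower in A549 than in H1299 (log2 -1.39, edgeR adjusted p = 0.000301) and 2.11-fold lower than in H460 (-1.08, adjusted p = 0.00103), and the difference between H1299 and H460 was 0.32 (adjusted p = 0.0583).

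RPPH1 had another order, with both H1299 libraries lowest. It was 2.52-fold lower in H1299 than in H460 (log2 -1.33, edgeR adjusted p = 0.000382), 1.90-fold higher in A549 than in H1299 (0.93, adjusted p = 0.00171), and 1.32-fold lower in A549 than in H460 (-0.40, adjusted p = 0.0440). RMRP was the exception to the calls, with an edgeR joint adjusted p of 0.175. Its pairwise differences were 0.26 (H1299 minus H460), 0.33 (A549 minus H460), and 0.07 (A549 minus H1299). Without the H1299 si-MALAT1 library, RMRP passed with an edgeR adjusted p of 0.0436.

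RN7SL1 was 1.63-fold lower in H1299 than in H460 (log2 -0.70, edgeR adjusted p = 0.00677) and 1.39-fold higher in A549 than in H1299 (0.48, adjusted p = 0.0299). RN7SL2 was 1.66-fold lower in H1299 than in H460 (-0.73, adjusted p = 0.00381). The joint calls of RN7SL1 and RN7SL2 depended on the scale and on A549. On log2(TPM + 1) with limma the adjusted p was 0.454 and 0.495, without the A549 control library 0.0800 and 0.0590, and without the A549 si-MALAT1 library 0.0837 and 0.0639. On the TPM scale the median of all genes itself moved by 0.17 (H1299 minus H460) and 0.15 (A549 minus H460), while the abundant genes take up to 49.3% of that sum.

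TERC was 2.41-fold lower in A549 than in H1299 (log2 -1.27, edgeR adjusted p = 0.00283) and 1.77-fold lower than in H460 (-0.83, adjusted p = 0.0177). Its joint adjusted p was 0.00478, and 0.0542 without the A549 control library. VTRNA1-3 had the largest differences, with a fitted log2 value of -4.72 for H1299 minus H460 (edgeR adjusted p = 0.00198) and 3.48 for A549 minus H1299 (adjusted p = 0.00747). Both rest on the few reads of H1299, 2 and 5. The H1299 minus H460 value was -4.10 without the H1299 control library, -5.59 without the H1299 si-MALAT1 library, and -3.43 on log2(TPM + 1) with limma, and the joint test passed in each. By pair of lines, 4 of the 7 genes passed between H1299 and H460 (52.6% of all genes), 3 between A549 and H460 (38.2%), and 5 between A549 and H1299 (48.9%).

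**Figure D4:**
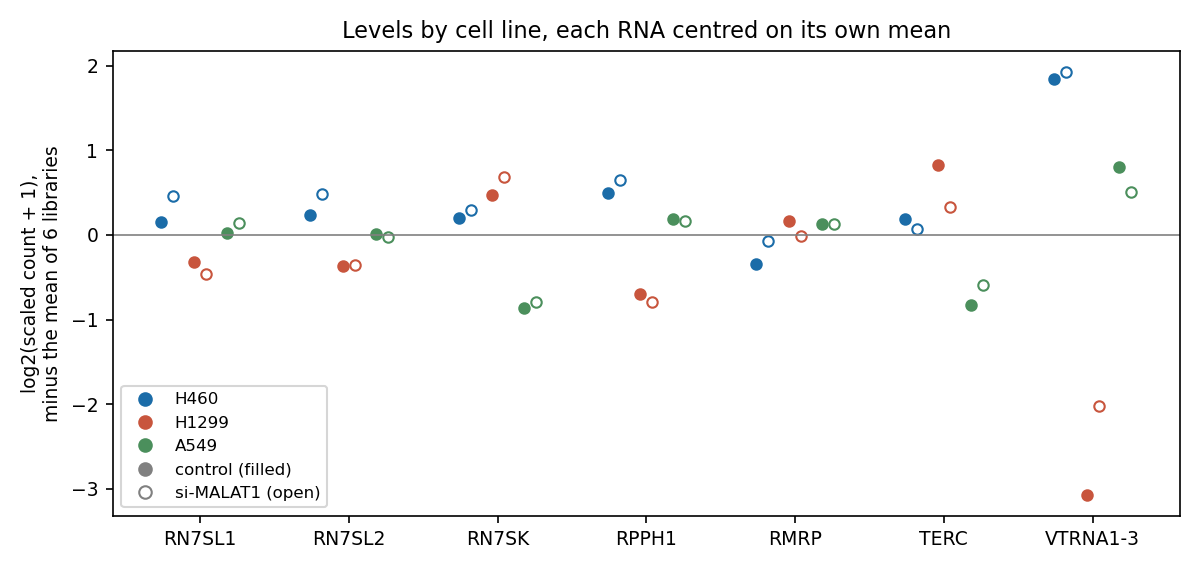
Log2(scaled count + 1) of 7 noncoding RNAs in each library, minus the mean of the RNA over the 6 libraries, with filled points for control and open points for si-MALAT1. The A549 points lie lowest for RN7SK and TERC, and the H1299 points lie lowest for RN7SL1, RN7SL2, RPPH1, and VTRNA1-3.

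Ratios of 2 RNAs within a library need no scaling factor and show how unevenly the lines differ. RMRP and RPPH1 are the RNA parts of 2 enzymes that share most of their proteins. The ratio of RMRP to RPPH1 reads averaged 0.353 in the lowest line, H460, and 1.07 in the highest, H1299, a 3.02-fold range between lines. After si-MALAT1 it was 8.09% higher in H460, 1.97% higher in A549, and lower in H1299 (-6.31%). The ratio of RN7SK to RPPH1 ranged 5.02-fold between lines, from 0.791 in A549 to 3.97 in H1299, and its largest change with si-MALAT1 was 22.9%, in H1299. The ratio of RN7SL2 to RN7SL1 stayed between 0.768 and 0.848 on average per line, a range of 1.11-fold, no larger than its largest change with si-MALAT1 (1.11-fold). The ratio of RN7SL2 to RN7SL1 also rests on how shared reads were split, which is not given in the sources used here. All of these ratios are descriptions and were not tested.

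**Figure D5:**
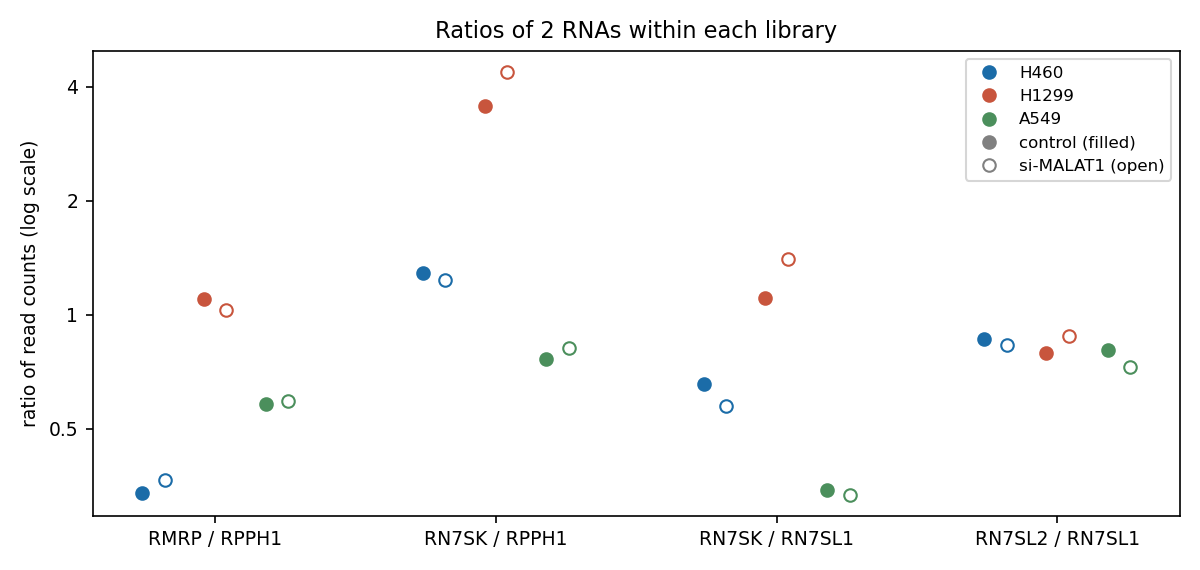
Ratio of read counts (log axis) of 4 pairs of RNAs in each library, with filled points for control and open points for si-MALAT1. The control and si-MALAT1 points of a line lie close together for RMRP to RPPH1, while the lines lie apart, and RN7SL2 to RN7SL1 is similar in all 6 libraries.

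The partner proteins and the machinery that makes these RNAs were described from 10 lists of 111 entries, all but 2 of them in the table. In edgeR's test of si-MALAT1, 0 genes of any of the 10 lists passed an adjusted p of 0.05, beside 0.00523% of all genes. The only gene that passed was MALAT1, which is in none of the lists, so this 0 does not set the lists apart. Among the 18 RNA polymerase III subunits, DESeq2 called 1 higher and 1 lower, beside 8.41% of all genes, with a list median of -0.09 on the log2 scale beside 0.0048 over all genes tested. The lower one was POLR2H, a subunit that RNA polymerases I and II also use. It had 2764 reads in control and 1188 after si-MALAT1 for H460, 3921 and 1130 for H1299, and 1691 and 630 for A549, a fitted difference of -1.47 (edgeR adjusted p = 0.0734, DESeq2 adjusted p = 1.53e-13). The higher one was POLR3G, the alternative to the subunit POLR3GL, at 0.44 (edgeR adjusted p = 0.158, DESeq2 adjusted p = 0.0151).

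Among the 19 initiation factors with the repressor MAF1, DESeq2 called 1 higher, the TFIIIC subunit GTF3C6 (0.47, DESeq2 adjusted p = 0.00847), and 2 lower, the SNAPc subunits SNAPC1 (-0.45, 0.0139) and SNAPC5 (-0.49, 0.0303), again beside 8.41% of all genes. SNAPc binds upstream promoters of the kind RN7SK, RMRP, and RPPH1 have. The edgeR adjusted p-values of GTF3C6, SNAPC1, and SNAPC5 were 0.148, 0.150, and 0.156. RO60, which binds Y RNAs and other small RNAs, was the 1 of 4 genes called by DESeq2 in the list of 3' end binding proteins (0.46, DESeq2 adjusted p = 0.00511, edgeR adjusted p = 0.173). No DESeq2 call was made among the 8 signal recognition particle proteins and receptor subunits (median 0.17), the 7 proteins of 7SK and P-TEFb (-0.04), the 11 of RNase P and RNase MRP (-0.02), the 8 of telomerase (-0.16), or the 3 of the vault (0.01). In the telomerase list TERT, the catalytic protein that uses TERC, had the largest difference at -0.86 (edgeR adjusted p = 0.312), from 193.8 reads on average.

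Between the lines, 14 of 18 polymerase subunits, 9 of 19 initiation factors, 5 of 8 signal recognition particle genes, 5 of 7 genes of 7SK and P-TEFb, 7 of 11 of RNase P and RNase MRP, 6 of 8 of telomerase, 1 of 3 of the vault, and 2 of 4 end binding proteins passed edgeR's joint test, beside the 64.3% of all genes. POLR3E was lower in H1299 than in H460 (log2 -1.27), as was POLR3K (-1.33). Of the polymerase subunits, 9 were called lower in H1299 than in H460 and 4 higher. The TATA binding protein TBP was higher in H1299 than in H460 (1.27). MAF1 was higher in H1299 (1.11) and A549 (1.10) than in H460. Of the initiation factors, 5 were called higher and 3 lower in H1299 than in H460. Between A549 and H460, 2 of them were higher in A549 and 2 lower. POP4, a protein of RNase P and RNase MRP, was 2.05 higher in H1299 than in H460 and 1.46 higher in A549 than in H460. Of the list of POP4, 3 were called higher and 2 lower in H1299 than in H460. Between A549 and H460, 2 were higher in A549 and 1 lower. HEXIM2 was 1.48 higher in A549 than in H460, and HEXIM1 0.82 higher. Of the 7 genes of 7SK and P-TEFb, 2 were higher in A549 than in H1299, HEXIM1 and HEXIM2, and 4 were lower, MEPCE (-0.87), CDK9 (-0.78), CCNT2 (-0.53), and CCNT1 (-0.41). The telomerase proteins DKC1 (-1.22) and NAF1 (-1.18) were lower in H1299 than in H460, and NOP10 was higher (0.80). MVP, the main protein of the vault, was 2.38 higher in H1299 than in H460, the pair of lines in which the VTRNA1-3 value was -4.72. Each difference named here passed its own pairwise edgeR test, the highest adjusted p being 0.0468 (CCNT1). The part of any of these proteins in the RNA levels was not tested.

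Of the other RNA polymerase III RNAs, 8 of 15 could be tested, and 2 of the 8 passed between lines, beside 64.3% of all genes. BCYRN1, a brain-enriched cytoplasmic RNA, had log2 differences of 1.29 for H1299 minus H460 and -1.52 for A549 minus H1299. RNU6-2, a U6 gene, had 266 and 290 reads in the H1299 libraries, 51 and 73 for H460, and 32 and 28 for A549. Of the small nuclear RNAs made by RNA polymerase II, 7 of 14 passed between lines, beside the same 64.3% of all genes. RNU5A-1, a U5 gene, had a difference of -2.79 for A549 minus H460, and RNU12, the U12 RNA of the minor spliceosome, one of -1.93.

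Across the 6 libraries, the genes whose log2 levels followed each RNA most closely were found by Pearson's r among 15903 genes with a mean count of at least 50. RN7SK was closest to MGC12916 (0.999), ZNF772 (0.998), and EFNB2 (0.998). Among those of the 9 that reached this mean count, TERC was the closest to RN7SK (0.918), at rank 786 of 15902 genes. RPPH1 was closest to COMTD1 (1.00), CBX2 (0.999), and DIMT1 (0.999), and RMRP to GINS2 (0.992), SAE1 (0.989), and COMMD4 (0.985). RN7SL1 was closest to GGCT (0.998), LAMTOR2 (0.997), and RPL21P119 (0.996), with RPPH1 at 0.968 (rank 105) and RN7SL2 at 0.958 (rank 185). RN7SL2 was closest to TATDN3 (0.997), NDUFB8 (0.992), and ACTR1B (0.992), and TERC to EEF1A1P11 (0.995), OTUD3 (0.993), and RPL7AP16 (0.992). The points share 3 lines with 2 libraries each, and these values are descriptions.

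Several of the genes share their position with another annotated gene. RPPH1 overlaps an exon of PARP2, a DNA repair enzyme read from the other strand. PARP2 had 16092 reads in control and 4656 after si-MALAT1 for H460, 2522 and 1978 for H1299, and 2436 and 2955 for A549, against at least 583290 reads of RPPH1. The kit marked strand, and whether counting used it is not given in the sources used here, so reads of the 2 genes cannot be told apart with certainty. RN7SL1 overlaps an exon of LOC107987206 on its own strand (1453 to 1889 reads) and lies within the span of RPS29 on the other strand, outside its exons. RN7SL2 overlaps an exon of LOC105378179 on its own strand (121 to 195 reads), and the vault RNA genes lie within LOC105378198, which had 0 to 8 reads.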

How the data were processed

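RNA-seq was performed on 6 libraries, 3 control and 3 si-MALAT1, 1 of each per cell line, made from rRNA-depleted total RNA with a kit that keeps strand. According to the methods, the authors removed adapters, mapped the reads to GRCh38 with HISAT, and ran StringTie per gene. The submitters' processing notes name HISAT2 2.1.0 and StringTie 1.3.4b, while the methods name a different version of StringTie. Which version made the counts cannot be told from the sources used here. The deposited read counts are whole numbers and not normalized. The authors' deposited FPKM and TPM values are scaled for length and depth, and FPKM was only checked. The table holds 18 further columns of values of other samples, which were not used. From the counts, RLE-scaled log2 differences, edgeR 4.0.16 quasi-likelihood tests (TMM, filterByExpr by treatment group), and DESeq2 1.42.0 and limma 3.58.1 alternatives were computed over all genes with R 4.3.3, with Benjamini-Hochberg adjustment. The cell line was the block because both libraries of a number come from 1 line. The main edgeR setting of each comparison was tested on simulated data that gave every gene the same spread. The alternative settings were not tested that way. Sequences and their exact repeats were read from the GRCh38 genome at the deposited annotation's coordinates with Python 3.11.15 and Biopython 1.88. The 9 genes and the 10 lists were chosen with earlier results of these data known. Genes named in the text are the 9 genes, MALAT1, cell markers, called genes of the lists (up to 5 by adjusted p, otherwise the 2 with the largest mean difference among those with a mean count of at least 50), the 3 closest in pattern, the most counted copies, and overlapping genes. CCNT1, GAPDH, SNORD3A, RNU1-1, RNU1-2, RNU1-3, RNU1-4, RNY1, RNY3, and RNU6-1 were named after their values were seen. Some sequences are not reported here.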

Additional observations from a re-analysis of the deposited data

Results flagged for a closer look

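The 5 RNAs below differed in direction between cell lines after si-MALAT1, with counting intervals on both sides of 0. The difference between lines was not tested, since each line has 1 library per condition. The distance on the log2 scale between the line with the highest and the line with the lowest value was 0.44 for RN7SL1 (highest in H460, lowest in H1299), 0.28 for RN7SL2 (H460 and A549), 0.45 for RMRP (H460 and H1299), 0.25 for RPPH1 (H460 and H1299), and 0.73 for TERC (A549 and H1299). In RN7SL2 and RPPH1 the A549 values of -0.03 turned to 0.0019 and 0.0054 with total-count scaling. On log2(TPM + 1), RPPH1 gave 0.0237 for H460, -0.0195 for H1299, and -0.0365 for A549, so A549 became the lowest and the lines lay closer together. RMRP gave 0.14, -0.11, and -0.0083 there, also closer together. The counting intervals of these abundant RNAs are narrow because of their depth and say nothing of the spread between cultures.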

How the results depend on the processing

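The count of the 9 RNAs called after si-MALAT1 was 0 in every setting run, which were RLE size factors, no filter on low counts, DESeq2, no replicate block (0), library sizes without these RNAs, limma on log2 TPM, leaving out each line (0 to 0), and the filter by the full design, added after the data were seen. The call of MALAT1 was lost with no filter, with the design filter, without the block, and without H1299 or A549, and its value in those settings lay between -2.73 and -2.58. Small fitted differences changed sign. RPPH1 gave 0.0134 with RLE size factors, 0.0134 with DESeq2, 0.0313 without the replicate block, and 0.0015 with the design filter, and VTRNA1-3 gave -0.0184 without the block. Leaving out a line gave -0.0231 to 0.20 for RN7SL1, -0.0232 to 0.11 for RN7SL2, -0.10 to 0.13 for RMRP, -0.0684 to 0.0620 for RPPH1, -0.32 to 0.0473 for TERC, and -0.10 to 0.43 for VTRNA1-3. The cause was not tested. Between lines, 6 RNAs were called in every other setting, also without the replicate block (6), except limma on log2 TPM (4), and leaving out a library gave 3 to 7, with 3 without the A549 control, 4 without the A549 si-MALAT1 library, and 7 without the H1299 si-MALAT1 library. In the main edgeR setting, 64.3% of all genes were called between lines and 0.00523% after si-MALAT1. The shares of all genes in most other settings are not given here. A lower count there cannot be told apart from fewer calls among all genes. Where MALAT1 itself was not called, a count of 0 says little about these RNAs. The single value past 1.5-fold within a line, VTRNA1-3 in H1299, was lost with a pseudocount of 10 (0). Of 171 refits of single genes, 146 kept direction and call. Of the 21 differences within a line, 17 moved outside their counting interval on log2 TPM and 10 with total-count scaling. Among the 9 RNAs, low counts limited the values of the vault RNAs, which had at most 83 reads in a library. Why so few of their reads were recovered was not tested.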

Other observations

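RNY1, a Y RNA gene of the list of other RNA polymerase III RNAs, had 38 and 61 reads in the H460 control and si-MALAT1 libraries, 22 and 43 in H1299, and 21 and 43 in A549. It was higher after si-MALAT1 in 3 of 3 lines, by 0.75, 1.06, and 0.87 on the log2 scale, and did not pass edgeR's test (fitted difference 0.89, adjusted p = 0.373). The gene was chosen after its values were seen. RNU12 gave 0.86, 0.20, and 0.88 in H460, H1299, and A549 (fitted difference 0.62, edgeR adjusted p = 0.285).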
